A study of Mus musculus with 6 samples.

Results

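The genes described here encode the proteins of the mitochondrial ribosome and of the machinery that imports proteins into mitochondria. They were chosen by name and by depth: symbols beginning with Mrpl or Mrps, with Timm or with Tomm, followed by a digit, and with at least 10 counts summed over the 6 libraries. Of 34590 gene symbols, 102 matched by name and 98 met the minimum. These were 79 Mrp members (48 Mrpl, named for the large ribosomal subunit, and 31 Mrps, named for the small one), 11 Timm members and 8 Tomm members. The summed count uses no difference between genotypes, but the set was chosen with results of these data known, so its counts below describe the set and are no independent test of it.

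RNA came from skin biopsies of C57BL/6 mice in which imiquimod, a Toll-like receptor 7 agonist that provokes psoriasis-like inflammation, had been applied to the skin for 2 days. There were 3 Tnip1-/- mice and 3 Tnip1+/+ mice, and all 6 received imiquimod. Tnip1 encodes a ubiquitin-binding protein that restrains NF-kB signalling together with A20. The labels give neither the deleted part of Tnip1 nor the age of the mice, and untreated skin was not analysed here. The biopsies were pulverised whole and the levels are relative to the library. A lower level from one cell type can mean fewer of its cells, less RNA per cell or more RNA from other cells. The counts cannot tell these apart.

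Mitochondria carry a small genome that encodes a few subunits of the respiratory chain, and a ribosome of their own that translates them. All proteins of that ribosome, and almost all other mitochondrial proteins, are encoded in the nucleus and made in the cytosol. They enter through the translocase of the outer membrane (TOM), and are then passed to translocases of the inner membrane: TIM23 takes proteins with a cleavable presequence, and TIM22 takes multi-spanning carriers that small TIM proteins chaperone across the intermembrane space.

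Libraries held 19529970 to 25864730 gene counts in Tnip1-/- skin and 24701074 to 31005554 in Tnip1+/+ skin, and 3 counts corresponded to 0.0968 to 0.154 CPM (counts scaled to library size) by library totals. All other CPM values are scaled by the trimmed mean of M values (TMM). Tnip1 had 47, 37 and 35 counts in Tnip1-/- libraries, against 938, 739 and 703 in Tnip1+/+ libraries. The keratinocyte markers, which define this tissue, were present in every library, with summed levels of 24624 to 28439 CPM in Tnip1-/- skin and 9134 to 15012 CPM in Tnip1+/+ skin. Xist and Y-linked counts marked Tnip1-/- replicates 1 and 2 and Tnip1+/+ replicate 1 as male and the other 3 mice as female, so the sexes were mixed in both genotypes. Y-linked counts were 5 in the female Tnip1-/- library and 127 and 4 in the female Tnip1+/+ libraries, the 127 in replicate 2. The sample codes of the 2 genotypes differ in prefix and number range, and a difference in handling, if there was one, cannot be told apart from genotype.

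Most import genes and most mitochondrial ribosome genes were higher in Tnip1-/- skin. Of the 96 members with enough counts to be tested, 61 were called higher and 2 lower in Tnip1-/- skin, and 33 were not called, at an adjusted p under 0.05 by the quasi-likelihood test of edgeR, with the p adjusted after Benjamini and Hochberg over all 16691 genes tested. Genotype differences were widespread in this tissue: 45.1% of all genes tested were called, 22.3% higher and 22.7% lower, against 63.5% higher and 2.08% lower among the members. The median log2 fold change, Tnip1-/- minus Tnip1+/+, was 0.52 over the members and -0.04 over all genes tested. In 68 of the 96 members all 3 Tnip1-/- libraries lay above all 3 Tnip1+/+ libraries and in 4 they lay below, against 29.2% and 30.5% of all genes tested (59.8% in either direction). By at least 1 on the log2 scale, 13 members were called higher and 1 lower, against 9.24% and 12.8% of all genes tested.

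By group, Timm genes had 10 of 11 called higher, with a median log2 fold change of 0.86, and Tomm genes had 7 of 8 called higher and 1 lower, with a median of 0.77. Of 77 Mrp genes tested, 44 were called higher and 1 lower, with a median of 0.47. No Timm gene was called lower by edgeR (0 at an unadjusted p under 0.05, and 0 with DESeq2 or limma voom). These medians shift with the scaling: with library totals alone the median of all genes moved by -0.16 on the log2 scale, and the Timm, Tomm and Mrp medians became 0.69, 0.61 and 0.31. Under that scaling 34.1% of all calls were higher in Tnip1-/- skin, against 49.6% with TMM, and 32 Mrp genes were called higher and 3 lower.

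**Figure D1:**
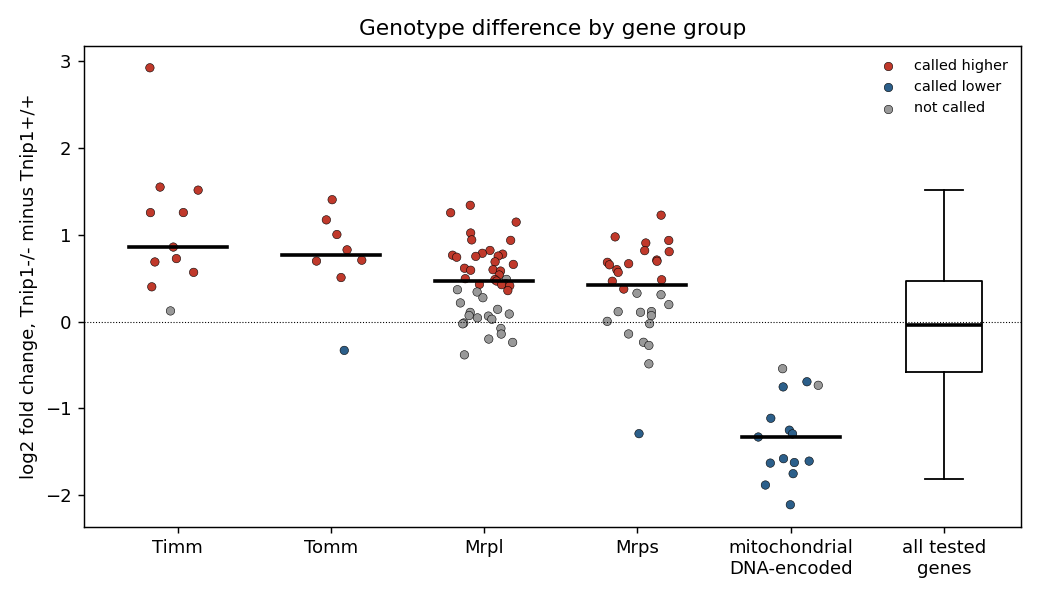
Log2 fold change (Tnip1-/- minus Tnip1+/+, vertical axis) of each tested Timm, Tomm, Mrpl, Mrps and mitochondrial DNA-encoded gene, coloured by call, with a bar at each group's median; the box shows the quartiles of all 16691 genes tested and its whiskers the 5th and 95th percentiles. Timm genes centre on 0.86 and Tomm genes on 0.77, Mrpl and Mrps genes on 0.47 and 0.42, and the mitochondrial DNA-encoded genes on -1.33.

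At the outer membrane, every TOM subunit that could be tested rose. Tomm20, a receptor for presequences, had 123, 109 and 121 CPM in Tnip1-/- libraries, against 58.8, 65.3 and 75.4 CPM in Tnip1+/+ libraries. Tomm22, the receptor that also organises the complex, had 103, 104 and 108 CPM in Tnip1-/- libraries, against 49.0, 41.5 and 49.6 CPM in Tnip1+/+ libraries. Neither gene's groups overlapped, and the log2 fold changes were 0.83 for Tomm20 (SE 0.12, adjusted p = 0.00304) and 1.17 for Tomm22 (SE 0.11, adjusted p = 0.0007, edgeR for both). Tomm70a, a receptor for carrier proteins delivered by cytosolic chaperones, had 157, 140 and 136 CPM in Tnip1-/- libraries, against 92.8, 111 and 101 CPM in Tnip1+/+ libraries, and its log2 fold change of 0.51 was the smallest among TOM subunits.

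Tomm40 forms the channel of the outer membrane. It had 56.5, 48.8 and 49.6 CPM in Tnip1-/- libraries, against 20.8, 17.7 and 19.99 CPM in Tnip1+/+ libraries, a log2 fold change of 1.41 (SE 0.12, adjusted p = 0.000546, edgeR), the highest of the Tomm genes. Its paralogue Tomm40l had 24.9 ± 2.77 CPM in Tnip1-/- skin and 15.4 ± 0.47 CPM in Tnip1+/+ skin (SD, n = 3 each; log2 fold change 0.70). Counts of Tomm40 were 2.03, 1.997 and 2.21 times those of Tomm40l in Tnip1-/- libraries and 1.33, 1.19 and 1.28 times in Tnip1+/+ libraries. Of the exon length of Tomm40l, 64.3% overlaps another annotated gene, so its counts and these ratios are less certain. The small subunits Tomm5 and Tomm7, which affect the assembly and stability of the complex, rose as well, by 1.00 and 0.71 on the log2 scale.

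Tomm34 went the other way. It had 22.9, 21.98 and 22.9 CPM in Tnip1-/- libraries, against 29.3, 29.2 and 26.8 CPM in Tnip1+/+ libraries, so its groups did not overlap, and its log2 fold change was -0.33 (SE 0.10, adjusted p = 0.0351, edgeR). Despite its name, its product is a cytosolic co-chaperone of Hsp70 and Hsp90 and not a subunit of the TOM channel. The call was lost when any 1 of the 6 libraries was left out (adjusted p 0.0549 to 0.149), while the log2 fold change stayed between -0.36 and -0.29.

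At the inner membrane, the channel-forming subunit Timm23 had 99.5, 87.3 and 83.8 CPM in Tnip1-/- libraries, against 31.4, 31.0 and 32.3 CPM in Tnip1+/+ libraries. The groups were far apart, and the log2 fold change was 1.52 (SE 0.11, adjusted p = 0.000327, edgeR). Timm50, which receives presequences on the intermembrane side of TIM23, had 33.9, 27.1 and 30.6 CPM in Tnip1-/- libraries, against 12.7, 10.2 and 15.5 CPM in Tnip1+/+ libraries (log2 fold change 1.26, adjusted p = 0.00264, edgeR). Timm44 tethers the Hsp70 import motor to the channel and had 46.8, 40.9 and 39.7 CPM in Tnip1-/- libraries, against 28.3, 32.7 and 35.5 CPM in Tnip1+/+ libraries. Its log2 fold change was 0.40 (adjusted p = 0.041, edgeR), and the call held when Tnip1+/+ replicate 3 was left out but not when any other library was, where adjusted p ran from 0.0638 to 0.12 (edgeR).

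Tim17, the partner of Tim23 in the inner membrane, has a pair of forms in mammals. Timm17a had 51.5, 43.2 and 42.0 CPM in Tnip1-/- libraries, against 27.1, 27.8 and 27.6 CPM in Tnip1+/+ libraries (log2 fold change 0.73, adjusted p = 0.00377, edgeR). Timm17b had 17.02, 16.1 and 14.5 CPM in Tnip1-/- libraries, against 13.7, 15.3 and 14.8 CPM in Tnip1+/+ libraries. Its groups overlapped and it was not called (log2 fold change 0.12, SE 0.12, adjusted p = 0.438, edgeR; -0.03 with library totals alone). In counts the ratio of Timm17a to Timm17b was 3.02, 2.68 and 2.89 in Tnip1-/- libraries and 1.98, 1.82 and 1.87 in Tnip1+/+ libraries, a ratio chosen after the values were seen and given with no test.

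Among the small TIM proteins, which ferry hydrophobic precursors between the membranes, Timm8a1 had the highest log2 fold change of all members. It had 53.3, 47.7 and 45.2 CPM in Tnip1-/- libraries, against 6.24, 6.35 and 6.66 CPM in Tnip1+/+ libraries. That is a 7.60-fold ratio of the means and a log2 fold change of 2.92 (SE 0.12, adjusted p = 5.87e-05, edgeR), at or above which lay 1.43% of all genes tested. Mutations of its human orthologue TIMM8A cause deafness-dystonia syndrome. Timm8a1 is on the X chromosome, and with sex as a covariate, an alternative added after the data were seen, its log2 fold change was 2.91. The gene Btk lies 471 bp from Timm8a1 on the same strand, and it had 8.396 ± 0.704 CPM in Tnip1-/- skin and 9.32 ± 2.43 CPM in Tnip1+/+ skin (SD, n = 3 each; log2 fold change -0.15, adjusted p = 0.581, edgeR). Of the next genes, Rpl36a, 43789 bp away, and Gla, 46284 bp away, were called higher, with log2 fold changes of 0.90 and 0.55 (adjusted p = 0.00237 and 0.0293, edgeR).

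Timm13 is the partner with which Tim8 proteins form a complex. It had 48.7, 42.6 and 42.5 CPM in Tnip1-/- libraries, against 16.0, 11.4 and 18.3 CPM in Tnip1+/+ libraries (log2 fold change 1.55, SE 0.19, adjusted p = 0.0015, edgeR). Timm8b, the other Tim8 form, had 37.0, 39.6 and 38.4 CPM in Tnip1-/- libraries, against 24.5, 27.1 and 26.1 CPM in Tnip1+/+ libraries (log2 fold change 0.57, adjusted p = 0.0053, edgeR). Timm8a1 had fewer counts than Timm8b in every Tnip1+/+ library, at 0.255, 0.235 and 0.256 times, and more in every Tnip1-/- library, at 1.44, 1.21 and 1.18 times. Per length of exon the order did not turn, since Timm8b is the shorter gene: Timm8a1 stood at 34.3 CPM per kb and Timm8b at 74.0 CPM per kb in Tnip1-/- skin, and at 4.52 and 49.9 CPM per kb in Tnip1+/+ skin.

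Timm9 and Timm10 form the main chaperone complex of the intermembrane space, and Timm22 is the channel of the carrier translocase they supply. Timm9 had 15.8, 13.4 and 13.4 CPM in Tnip1-/- libraries, against 5.67, 4.76 and 7.40 CPM in Tnip1+/+ libraries (log2 fold change 1.26, adjusted p = 0.00339, edgeR). Timm10 had 15.5, 12.2 and 11.8 CPM in Tnip1-/- libraries, against 6.93, 6.46 and 8.403 CPM in Tnip1+/+ libraries (log2 fold change 0.86, adjusted p = 0.00858, edgeR). Timm22 had 18.4, 17.3 and 20.6 CPM in Tnip1-/- libraries, against 11.2, 10.7 and 13.03 CPM in Tnip1+/+ libraries (log2 fold change 0.69, adjusted p = 0.00794, edgeR). In all of these genes the groups did not overlap.

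**Figure D2:**
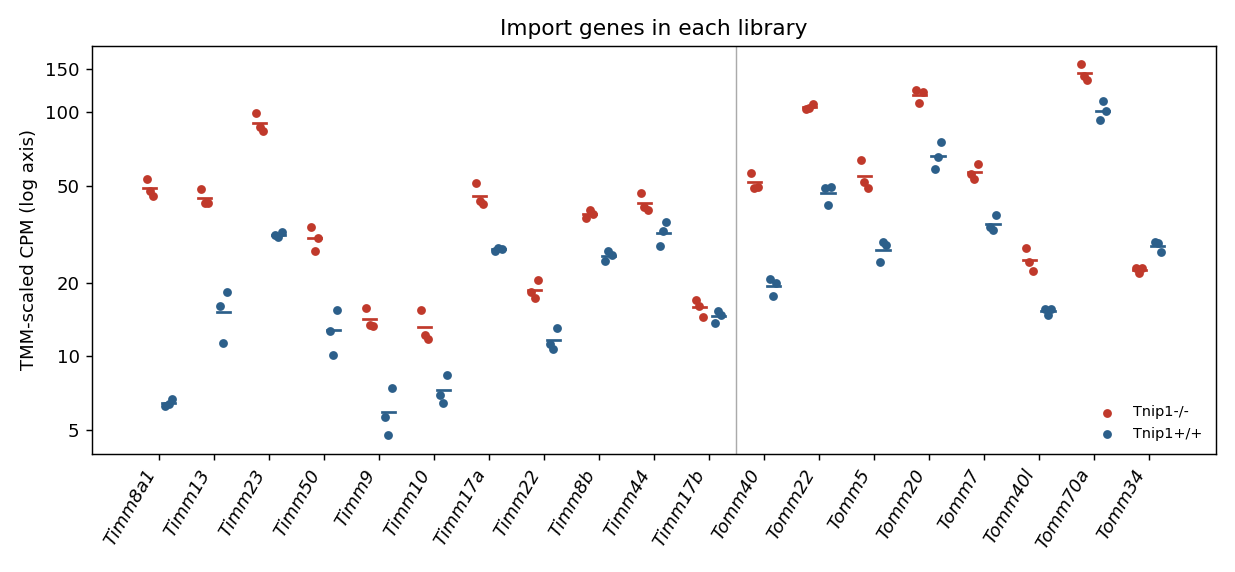
TMM-scaled CPM (log axis) of each Timm and Tomm member in each library, Tnip1-/- in red to the left of Tnip1+/+ in blue, with a bar at each group's mean (n = 3 each). Timm8a1 lies between 45.2 and 53.3 CPM in Tnip1-/- skin, against 6.24 to 6.66 CPM in Tnip1+/+ skin, Timm17b overlaps, and Tomm34 is lower in Tnip1-/- skin.

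Since most import genes rose together, their promoters were searched for short motifs of factors known to act on nuclear genes for mitochondrial proteins: the E-box CACGTG bound by Myc, USF and other helix-loop-helix proteins, the ETS core CCGGAAG of GABP, the NRF1 half-site pair and the YY1 element AAGATGGCG, each on both strands. RefSeq (GRCm38.p6) gave promoters for 83 of the 98 members, 91 promoters in all, each of 300 bases, from 250 before to 50 after the start. The E-box was in 12.1% of member promoters, against 9.37% of the promoters of tested genes and 7.15% of all promoters. The ETS core was in 33.0%, against 14.8% and 8.86%, the NRF1 element in 15.4%, against 8.44% and 4.6%, and the YY1 element in 9.89%, against 2.46% and 1.40%. Between members called higher and the other members, the shares were 15.5% and 6.06% for the E-box, 36.2% and 27.3% for the ETS core, 17.2% and 12.1% for the NRF1 pair and 10.3% and 9.09% for YY1, over 58 and 33 promoters. Of the 9 E-box promoters of members called higher, 3 belong to 1 gene, Mrpl2. Of the 19 Timm and Tomm promoters, 4 hold the E-box, 7 the ETS core, 2 the NRF1 pair and 1 the YY1 element. These shares are descriptions with no test, and a match is not a binding site.

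The promoters of Timm8a1, Timm9, Timm23 and Tomm20 are shown because these import genes rose and hold the motifs in different arrangements; they were chosen after the values were seen. Each runs from 250 bases before the start to 30 after it, on the minus strand of GRCm38.p6, in lower case with motif letters in capitals. Timm8a1 (chrX:134541641-134541920) holds E-boxes from positions -236 and 25, counted from 1 at the start. Timm9 (chr12:71136646-71136925) holds E-boxes from -58 and -1. Timm23 (chr14:32201862-32202141) holds ETS cores from -47, in reverse, and 11. Tomm20 (chr8:126945892-126946171) holds an E-box from -126 and an NRF1 element, in reverse, from -20.
Timm8a1: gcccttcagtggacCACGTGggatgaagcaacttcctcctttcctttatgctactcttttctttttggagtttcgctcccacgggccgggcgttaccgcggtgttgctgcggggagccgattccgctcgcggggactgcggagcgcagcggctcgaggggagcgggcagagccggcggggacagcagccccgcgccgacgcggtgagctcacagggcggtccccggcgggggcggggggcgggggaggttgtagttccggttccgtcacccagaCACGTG
Timm9: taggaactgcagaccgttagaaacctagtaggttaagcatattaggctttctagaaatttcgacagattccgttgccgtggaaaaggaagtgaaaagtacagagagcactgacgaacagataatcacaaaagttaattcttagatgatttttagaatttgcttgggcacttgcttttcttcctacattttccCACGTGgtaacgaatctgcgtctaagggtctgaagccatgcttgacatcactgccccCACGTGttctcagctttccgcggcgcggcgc
Timm23: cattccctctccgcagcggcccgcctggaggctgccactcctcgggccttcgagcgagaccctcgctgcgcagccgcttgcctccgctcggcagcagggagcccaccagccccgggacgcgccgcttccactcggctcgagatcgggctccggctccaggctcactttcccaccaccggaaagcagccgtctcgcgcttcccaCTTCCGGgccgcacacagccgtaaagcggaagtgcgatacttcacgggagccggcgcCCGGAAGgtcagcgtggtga
Tomm20: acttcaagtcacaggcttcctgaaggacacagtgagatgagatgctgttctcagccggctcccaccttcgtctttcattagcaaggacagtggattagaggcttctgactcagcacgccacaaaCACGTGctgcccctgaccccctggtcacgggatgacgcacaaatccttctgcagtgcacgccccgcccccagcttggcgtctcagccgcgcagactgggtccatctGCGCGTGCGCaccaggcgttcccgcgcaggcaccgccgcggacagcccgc

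In the large mitochondrial ribosomal subunit 28 of 47 tested Mrpl genes were called higher in Tnip1-/- skin and 0 lower by edgeR (1 lower at an unadjusted p under 0.05, and 0 called lower with DESeq2 or limma voom), with a median log2 fold change of 0.47. Mrpl28 had the highest, with 34.4, 33.1 and 40.0 CPM in Tnip1-/- libraries, against 14.7, 13.4 and 14.4 CPM in Tnip1+/+ libraries (log2 fold change 1.34, SE 0.12, adjusted p = 0.000642, edgeR). Mrpl36 had 33.8, 32.4 and 32.4 CPM in Tnip1-/- libraries, against 13.9, 13.1 and 14.4 CPM in Tnip1+/+ libraries (log2 fold change 1.25, adjusted p = 0.000511, edgeR). Mrpl33 had 73.4, 68.9 and 67.0 CPM in Tnip1-/- libraries, against 33.3, 29.6 and 31.7 CPM in Tnip1+/+ libraries (log2 fold change 1.15, adjusted p = 0.000644, edgeR). All 3 are counterparts of bacterial ribosomal proteins, and their groups were far apart. Mrpl52, a protein found in the mitochondrial but not the bacterial ribosome, rose by 1.02 on the log2 scale, and Mrpl20 and Mrpl21, again with bacterial counterparts, rose by 0.94 each.

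At the other end, Mrpl32 had 21.6, 22.9 and 24.2 CPM in Tnip1-/- libraries, against 25.0, 36.2 and 28.4 CPM in Tnip1+/+ libraries. Its product is matured by the m-AAA protease of the inner membrane before it joins the ribosome. Its groups did not overlap, but it was not called (log2 fold change -0.38, adjusted p = 0.0832, edgeR), and it passed the threshold without Tnip1+/+ replicate 1 (adjusted p = 0.0428, edgeR), with library totals alone (adjusted p = 0.0276, edgeR) and, narrowly, with upper-quartile factors. Mrpl39 (log2 fold change -0.20), Mrpl42 (-0.14), Mrpl49 (-0.08) and Mrpl41 (-0.03) were not called either. So members of 1 subunit, whose proteins are built into the same particle, ranged from -0.38 to 1.34 on the log2 scale.

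In the small subunit 16 of 30 tested Mrps genes were called higher and 1, a pseudogene, lower in Tnip1-/- skin, with a median log2 fold change of 0.42. Mrps14 had 31.8, 36.2 and 34.4 CPM in Tnip1-/- libraries, against 15.2, 11.996 and 16.5 CPM in Tnip1+/+ libraries (log2 fold change 1.23, SE 0.15, adjusted p = 0.00151, edgeR). Mrps7 had 50.6, 39.2 and 47.1 CPM in Tnip1-/- libraries, against 23.1, 21.9 and 24.5 CPM in Tnip1+/+ libraries (log2 fold change 0.98, adjusted p = 0.00209, edgeR). Both have bacterial counterparts in the head of the small subunit. Mrps33 and Mrps26, which have none, rose by 0.94 and 0.82 on the log2 scale, and Mrps16 and Mrps24, which have one, by 0.91 and 0.81.

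Mrps15, an RNA-binding protein of the small subunit with a bacterial counterpart, had 24.3, 19.8 and 25.0 CPM in Tnip1-/- libraries, against 24.6, 41.9 and 30.4 CPM in Tnip1+/+ libraries. Its groups overlapped and it was not called (log2 fold change -0.49, adjusted p = 0.0967, edgeR), but it passed the threshold without Tnip1+/+ replicate 1 (adjusted p = 0.0386, edgeR) and with library totals alone (adjusted p = 0.0324, edgeR). Mrps36, which despite its name is a subunit of the oxoglutarate dehydrogenase complex, had a log2 fold change of -0.27 and was not called. Mrps6 (-0.24), Mrps31 (-0.14) and Mrps30 (-0.02), whose product sits in the large subunit, were not called.

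**Figure D3:**
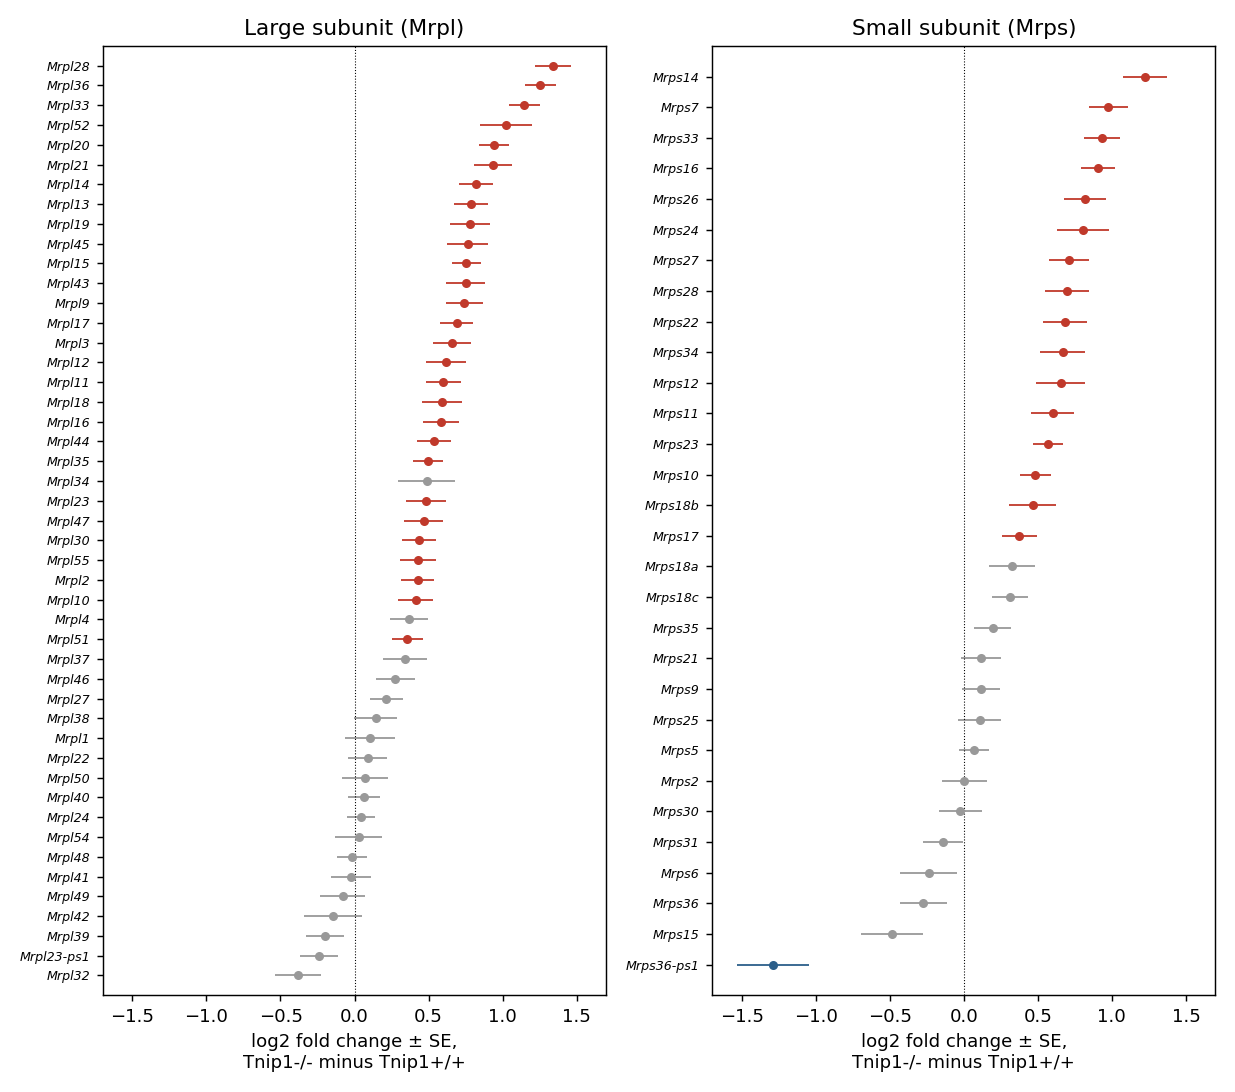
Log2 fold change ± SE (Tnip1-/- minus Tnip1+/+, edgeR) of the 47 tested Mrpl genes and the 30 tested Mrps genes, ranked from highest to lowest; red points were called higher, blue points lower and grey points not called. Mrpl genes run from 1.34 for Mrpl28 to -0.38 for Mrpl32, and Mrps genes from 1.23 for Mrps14 to -1.29 for the pseudogene Mrps36-ps1.

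Names of mitochondrial ribosomal proteins follow bacterial numbering up to Mrpl36 and Mrps21, and higher numbers were mostly given to proteins that bacteria lack. Of 28 tested Mrpl genes numbered up to 36, 21 were called higher (median log2 fold change 0.60), against 7 of 18 with higher numbers (median 0.21). In Mrps genes the order was the other way round: 8 of 16 numbered up to 21 were called higher (median 0.35), against 8 of 13 with higher numbers (median 0.67). The split was made after the values were seen and was not tested.

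Of the 98 members, 4 are annotated as processed pseudogenes. Mrps36-ps1 was called lower, with 15, 19 and 14 counts in Tnip1-/- libraries, against 65, 49 and 47 counts in Tnip1+/+ libraries (log2 fold change -1.29, SE 0.24, adjusted p = 0.00614, edgeR). Mrpl23-ps1 had 11.3 ± 0.579 CPM in Tnip1-/- skin and 13.3 ± 1.04 CPM in Tnip1+/+ skin (SD, n = 3 each; log2 fold change -0.24, not called), while its parent Mrpl23 rose by 0.48. Reads of such copies can be shared with their parents, so these values are uncertain. Mrps36-ps2 (33 counts in all) and Mrpl48-ps (41 counts) lay just inside the minimum of 10 and were too low to be tested, and the next lowest member was Mrps36-ps1 with 209. Just outside it were Timm8a2 with 3 counts, Tomm6 with 2, and Mrpl53 and Tomm20l with 0. In GENCODE vM21, 88.0% of the exon length of Mrpl53 and 84.2% of that of Tomm6 overlaps another gene. Without the pseudogenes 61 members were called higher and 1 lower, of 94.

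Summed over each group, the levels were steady between replicates. Timm members summed to 437, 387 and 382 CPM in Tnip1-/- libraries, against 184, 184 and 205 CPM in Tnip1+/+ libraries. Tomm members summed to 611, 554 and 571 CPM in Tnip1-/- libraries, against 324, 342 and 355 CPM in Tnip1+/+ libraries. Mrp members summed to 2119, 2014 and 2119 CPM in Tnip1-/- libraries, against 1461, 1575 and 1601 CPM in Tnip1+/+ libraries. The ratio of the Timm to the Mrp sum was 0.193 ± 0.0129 in Tnip1-/- skin and 0.124 ± 0.00615 in Tnip1+/+ skin, and that of the Tomm to the Mrp sum 0.278 ± 0.00965 and 0.220 ± 0.00281 (SD, n = 3 each), so import genes were higher relative to ribosome genes in every Tnip1-/- library.

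Markers of other cell types moved with genotype in the same libraries. Skeletal muscle markers, 13 of 14 called lower, summed to 5376, 3703 and 5011 CPM in Tnip1-/- libraries, against 10746, 19116 and 11687 CPM in Tnip1+/+ libraries. Adipocyte markers, 6 of 11 called lower, summed to 200.3 to 1624 CPM in Tnip1-/- libraries and 2762 to 4873 CPM in Tnip1+/+ libraries. Proliferation markers, 10 of 12 called higher, summed to 905, 1211 and 1456 CPM in Tnip1-/- libraries, against 355, 290 and 844 CPM in Tnip1+/+ libraries. The number of proliferation markers called was 3 without Tnip1+/+ replicate 1 or Tnip1-/- replicate 3. It was 5 without replicate 2 of either genotype, 6 without Tnip1-/- replicate 1 and 12 without Tnip1+/+ replicate 3. All 9 tested neutrophil markers were called higher, with sums of 7406 to 12088 CPM in Tnip1-/- libraries and 29.1 to 165.7 CPM in Tnip1+/+ libraries. The defining neutrophil marker Ly6g had 9, 0 and 4 counts in Tnip1-/- libraries and 0 in each Tnip1+/+ library, too few to be tested. Of 8 tested keratinocyte markers 5 were called higher and 1 lower, of 8 macrophage markers 3 were called higher, and of 6 fibroblast markers 2 were called lower. The fibroblast sum was highest in Tnip1+/+ replicate 1 at 16454 CPM. Of all genes tested 22.3% were called higher and 22.7% lower. The part of these cells in the changes of import and ribosome genes was not tested.

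When the fit included a score of muscle and fat markers, no Mrp or Tomm gene was called by edgeR (27 Mrp and 7 Tomm genes were higher at an unadjusted p under 0.05) and 2 Timm genes were, Timm8a1 and Timm23, while calls over all genes dropped to 235 in each direction. The median log2 fold changes in that fit were 0.93 for Timm, 0.90 for Tomm and 0.56 for Mrp, above those without the covariate. When it instead included a proliferation score, added after the data were seen, 3 Mrp, 2 Timm and 2 Tomm genes were called higher and the medians were 0.37, 0.83 and 0.69. Neither score overlapped between genotypes: the muscle and fat score ran from -1.40 to -0.36 in Tnip1-/- libraries and from 0.39 to 1.19 in Tnip1+/+ libraries, and the proliferation score from 0.43 to 1.06 and from -1.39 to 0.14, so score and genotype are hard to tell apart in 6 libraries.

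**Figure D4:**
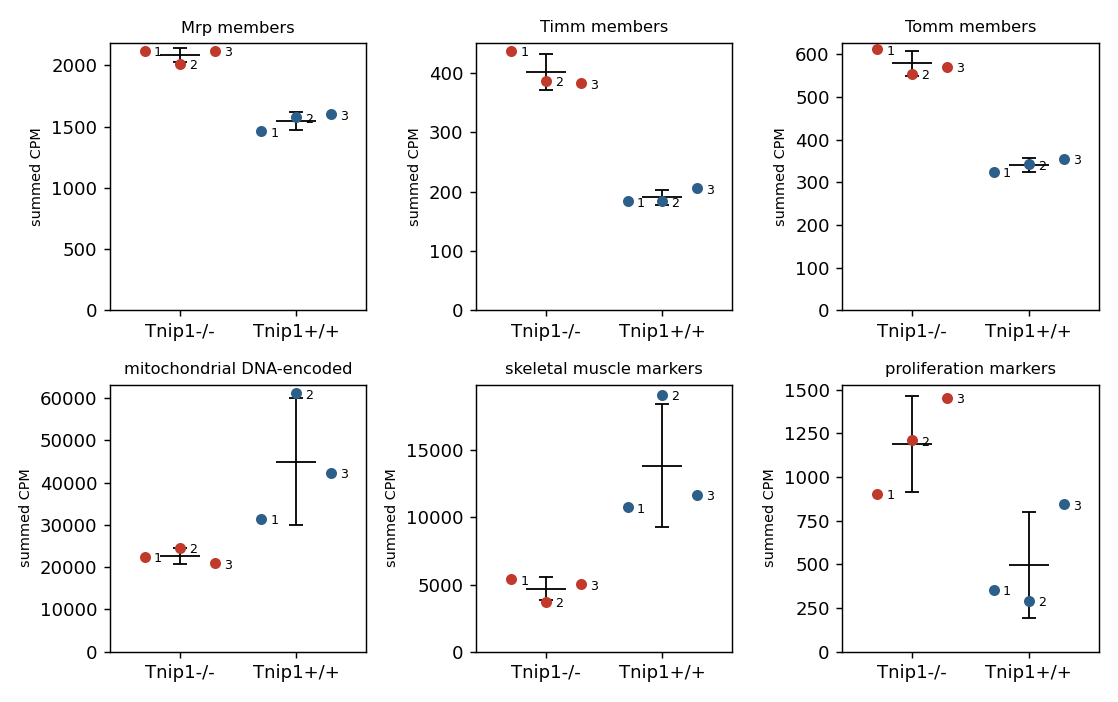
Summed TMM-scaled CPM (linear axes from 0) of the Mrp, Timm and Tomm members and of 3 other lists in each library, numbered by replicate, with mean and SD (n = 3 each). The member sums are higher in all Tnip1-/- libraries, the mitochondrial DNA-encoded and muscle sums are lower with Tnip1+/+ replicate 2 highest, and the proliferation sum of Tnip1+/+ replicate 3, at 844 CPM, lies just below the 905 CPM of Tnip1-/- replicate 1.

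The other genes of the same pathways were counted from lists that were chosen with earlier results of these data known. The shares to set beside their counts are those of all genes tested, 22.3% higher and 22.7% lower. Mitoribosome subunits under other names had 5 of 7 called higher (median log2 fold change 0.48), among them Dap3 and Ptcd3 of the small subunit, at 0.67 and 0.59. That count was 2 without Tnip1-/- replicate 1 or Tnip1+/+ replicate 1, 3 without Tnip1-/- replicate 3 and 1 with library totals alone, and Dap3 was not called in the last. Other import genes had 13 of 24 called higher and 0 lower by edgeR (2 lower at an unadjusted p under 0.05, and 0 with DESeq2 or limma voom), with a median of 0.50. That 0 did not hold in every setting: 2 were called lower with library totals alone and with upper-quartile factors, and 1 without Tnip1+/+ replicate 1. Chchd4, the oxidoreductase that traps small TIM proteins in the intermembrane space, had 17.4 ± 3.00 CPM in Tnip1-/- skin and 6.62 ± 0.261 CPM in Tnip1+/+ skin (SD, n = 3 each; log2 fold change 1.40, adjusted p = 0.00136, edgeR). Grpel1, the exchange factor of the import motor, rose by 1.16, Romo1 by 1.11 and Mtx2, a metaxin of the outer membrane, by 0.80.

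Assembly factors of the mitochondrial ribosome rose in 8 of 21 (38.1%), with the helicase Ddx28 at 0.87 and Fastkd2 at 0.67. That count was 5 without Tnip1-/- replicate 1 or Tnip1+/+ replicate 1. Mitochondrial tRNA synthetases rose in 8 of 19 (42.1%) and fell in 1, with Yars2 at 0.95 and Mars2 at 0.90. They rose in 5 without Tnip1-/- replicate 1 or with library totals alone, and 0 were called lower by edgeR when any library other than Tnip1+/+ replicate 1 was left out. Translation factors were mostly not called: 3 of 14 rose and 1 fell, with a median of 0.07. That is 21.4% higher beside 22.3% of all genes tested, which is near the background. The elongation factors Tufm and Tsfm rose by 1.09 and 1.5 and the RNA-stabilising protein Lrpprc by 0.82, and Oxa1l, which inserts the products of mitochondrial translation into the inner membrane, had a log2 fold change of -0.49 (adjusted p = 0.0148, edgeR). The call of Oxa1l was lost without Tnip1+/+ replicate 3, Tnip1-/- replicate 1 or Tnip1-/- replicate 3 (adjusted p 0.052, 0.0516 and 0.0602, edgeR).

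Among regulators of mitochondrial biogenesis 5 of 17 were called higher and 1 lower, 29.4% higher beside 22.3% of all genes tested, which is near the background. Leaving out Tnip1-/- replicate 1, 2 or 3 gave 3, 3 and 2 called higher, and library totals alone gave 2. Esrra, a nuclear receptor of respiratory genes, rose by 1.13, Pprc1, a coactivator of the PGC-1 family, by 0.87 and Nrf1 by 0.48, and Nrf1 lost its call without Tnip1-/- replicate 3 (adjusted p = 0.05004, edgeR) and with library totals alone. Ppargc1a, which encodes PGC-1alpha and is abundant in muscle and brown fat, fell to 2.60 ± 0.105 CPM in Tnip1-/- skin, against 6.81 ± 2.60 CPM in Tnip1+/+ skin (SD, n = 3 each; log2 fold change -1.39, adjusted p = 0.0105, edgeR). Among other factors whose motifs were searched, Myc (log2 fold change 0.19), Gabpa (-0.29) and Yy1 (0.13) were not called (adjusted p = 0.581, 0.112 and 0.364, edgeR).

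Genes encoded in mitochondrial DNA did not follow the nuclear genes of the mitochondrial ribosome. Their counts, medians and sums cover the transcripts that this ribosome translates and also ribosomal RNAs, which are not translated. All 15 tested genes, the ribosomal RNAs that depletion removes in part among them, were lower in every Tnip1-/- library than in every Tnip1+/+ library. Of them 13 were called lower, with a median log2 fold change of -1.33. The number called was 9 without any 1 Tnip1-/- library or with sex as a covariate. It was 11 without Tnip1+/+ replicate 2 or 3 and 15 without Tnip1+/+ replicate 1. The median was -0.99 without Tnip1+/+ replicate 2 and -1.58 without Tnip1+/+ replicate 1. Levels of the 15 genes summed to 22420, 24610 and 20923 CPM in Tnip1-/- libraries, against 31400, 61203 and 42317 CPM in Tnip1+/+ libraries. mt-Cytb, which encodes cytochrome b of complex III, had 408 ± 30.9 CPM in Tnip1-/- skin and 1261 ± 478 CPM in Tnip1+/+ skin (SD, n = 3 each; log2 fold change -1.63, adjusted p = 0.00454, edgeR). The library with the highest sum, Tnip1+/+ replicate 2, also had the highest muscle and adipocyte sums. With the muscle and fat score as a covariate none of the 15 was called by edgeR (0 at an unadjusted p under 0.05) and their median log2 fold change was -0.84. With the proliferation score none was called either (4 at an unadjusted p under 0.05) and the median was -0.97. The part of muscle, fat or dividing cells in these values was not tested.

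Nuclear genes of the respiratory chain rose in 44 of 84 and fell in 7 (median log2 fold change 0.42). The number called lower was 4 without Tnip1+/+ replicate 2, and 9 without Tnip1+/+ replicate 1. With library totals alone 35 were called higher and 9 lower. By complex, 13 of 18 ATP synthase genes, 6 of 8 of complex III, 15 of 37 of complex I, 8 of 17 of complex IV and 2 of 4 of complex II were called higher. Called lower were 4 genes of complex IV, 2 of the ATP synthase and 1 of complex I. Over the list 52.4% were called higher and 8.33% lower, against 22.3% and 22.7% of all genes tested. Atp5e, a small subunit of the ATP synthase, had 97.1 ± 12.97 CPM in Tnip1-/- skin and 19.8 ± 2.08 CPM in Tnip1+/+ skin (SD, n = 3 each; log2 fold change 2.29, adjusted p = 0.000222, edgeR). Cytosolic ribosomal protein genes rose in 66 of 83 and fell in 1, or 4 without Tnip1+/+ replicate 1, with a median of 0.83. The ratio of the Mrp sum to the respiratory chain sum was 0.232 ± 0.000957 in Tnip1-/- skin and 0.245 ± 0.0051 in Tnip1+/+ skin, and that to the cytosolic ribosome sum 0.0513 ± 0.00222 and 0.0635 ± 0.00512 (SD, n = 3 each).

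**Figure D5:**
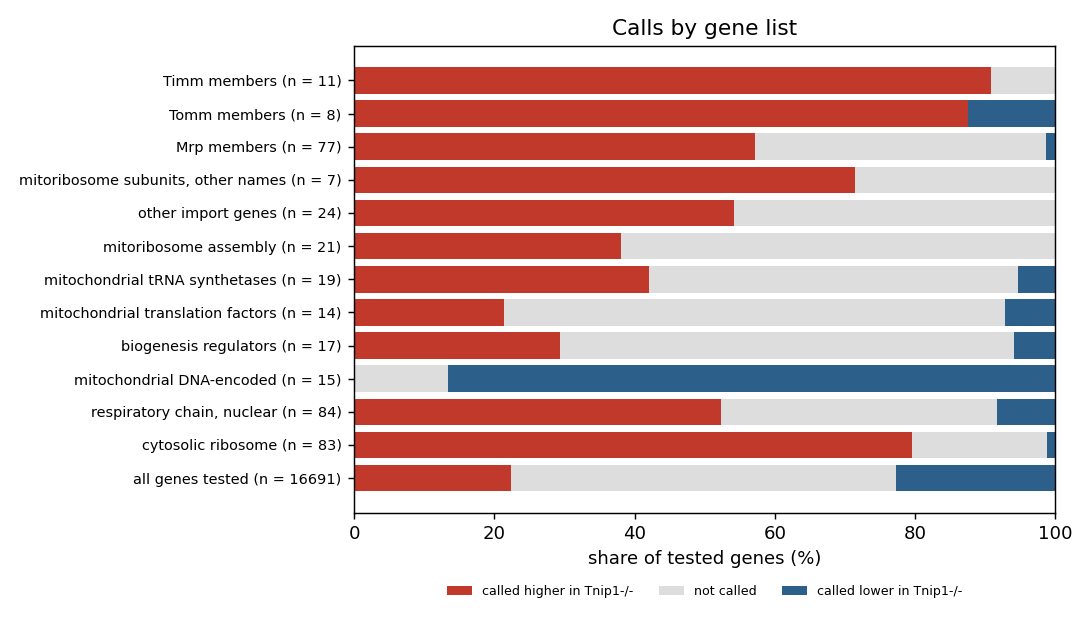
Share of tested genes (%, horizontal axis) in each list called higher in Tnip1-/- skin (red), not called (grey) or called lower (blue), with the number tested beside each name. Among the lists plotted, Timm and Tomm members have the highest shares called higher, 10 of 11 and 7 of 8, mitochondrial DNA-encoded genes have 13 of 15 called lower, and all genes tested have 22.3% higher and 22.7% lower.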

How the data were processed

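RNA-seq of skin from 3 Tnip1-/- and 3 Tnip1+/+ mice was used. The deposited values were whole-number counts per gene symbol, 1 file per library. The submitters' processing notes name the build mm9, the aligners STAR and BWA, the counter HTSeq, and CASAVA 1.7, R 3.2.3 and limma. The order of use, the treatment of reads that map to several copies and the counter's strand setting are not given in the sources used here, so overlapping and antisense genes cannot be told apart. The 5 summary lines of each file (26.7% to 30.3% of its counts) were left out. Per the labels' protocols, RNA was depleted of ribosomal RNA and read in pairs of 100 bp.

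Tests used edgeR 4.0.16 in R 4.3.3 (TMM, filterByExpr by genotype, quasi-likelihood fit without robust dispersion, genotype as the only term, Benjamini-Hochberg adjustment over 16691 genes), after the procedure was tested on simulated data. SE is the log2 fold change divided by the square root of F. P-values set the genotype difference against the spread between mice of the same genotype, estimated in part from all genes tested. Between replicates chi-square over its degrees of freedom was 30.8 to 124, so none was a duplicate. Exon lengths, gene types and overlaps came from GENCODE vM21 (GRCm38), matched by symbol for all 98 members.

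The members and lists were chosen with earlier results of these data known. Named are every Timm and Tomm member, the 6 highest and 6 lowest log2 fold changes of Mrpl and of Mrps, members called against their group's majority, those nearest the 10-count minimum, up to 4 genes with the smallest p of each other mitochondrial list, and Tnip1. Mrpl2, Mrpl23, Mrpl34, Btk, Rpl36a, Gla, Myc and Ly6g were named after their values were seen, and 1 gene the rule names is not reported here. Alternatives were DESeq2 1.42.0, voom in limma 3.58.1, other scalings and filters, a replicate block, each library left out, a covariate scoring muscle and fat markers, and muscle, fat and mitochondrially encoded genes left out. Sex, a proliferation score and leaving out members with over 20% of exon length in another gene were added after the data were seen.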

Additional observations from a re-analysis of the deposited data

How the results depend on the processing

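Counts of Mrp, Timm and Tomm genes called higher stayed within 1.5 times those reported with DESeq2, limma voom, robust dispersion, upper-quartile factors, library totals alone, no filter, a stricter filter, sex as a covariate, muscle, fat and mitochondrially encoded genes left out, and members overlapping other genes left out. Timm8a1 and Timm23 were called in all 18 alternatives. With the muscle and fat score as a covariate calls dropped to 235 higher and 235 lower over all genes, 0 Mrp higher and 0 lower, 2 Timm higher, and 0 Tomm higher and 0 lower. With the proliferation score they dropped to 437 higher and 518 lower, 3 Mrp higher and 0 lower, 2 Timm higher, and 2 Tomm higher and 0 lower. Mrp genes called lower numbered 3 with library totals alone and 2 with upper-quartile factors, and Tomm genes called lower 0 with no filter and with sex as a covariate. In these, the causes were not tested. Without 1 library, Mrp genes called higher ranged from 34 to 43, Mrp genes called lower from 1 to 3 (3 without Tnip1+/+ replicate 1), Timm genes called higher from 9 to 10, Tomm genes called higher stayed at 7 and Tomm genes called lower at 0. Over all genes the ranges were 2792 to 3421 higher and 2679 to 3445 lower.

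Of the 96 members tested, 23 changed sign in at least 1 alternative, 13 of them with library totals alone and 9 when 1 library was left out. None of the 23 was called with all libraries and TMM, and the largest of them by size, Mrpl34 and Mrps15, stood at 0.49 and -0.49. For the named ones, Timm17b with library totals alone stood at -0.0329. With sex as a covariate Mrpl41 stood at 0.0030, Mrpl42 at 0.01, Mrpl49 at 0.0079 and Mrps30 at 0.0184, and with the proliferation score Mrps30 stood at 0.16 and Mrps31 at 0.0097. With the muscle and fat score Mrpl42 stood at 0.34, Mrpl49 at 0.20, Mrps15 at 0.31, Mrps30 at 0.45, Mrps31 at 0.14, Mrps36 at 0.21 and Mrps6 at 0.29. Without 1 library Mrpl41 ranged from -0.1104 to 0.0517, Mrpl42 from -0.3062 to 0.0632, Mrpl49 from -0.1511 to 0.0532 and Mrps30 from -0.0951 to 0.0846. Mrpl41 was above 0 without Tnip1+/+ replicate 2 or 3 or Tnip1-/- replicate 3, and Mrpl42 without Tnip1+/+ replicate 2. Mrpl49 was above 0 without Tnip1+/+ replicate 3 or Tnip1-/- replicate 2, and Mrps30 without replicate 2 of either genotype. These values are log2 fold changes, and the cause was not tested.

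Replicate numbers are shared by both genotypes. The deviations of same-numbered libraries from their group means had correlations of 0.011, -0.21 and 0.19. With 3 libraries a group, such correlations cannot settle whether the numbers mark pairs. With the replicate block 37 Mrp genes were called higher and 1 lower, 9 Timm higher, 7 Tomm higher and 0 lower, and 3323 genes higher and 3142 lower over all. Under it mitoribosome subunits under other names called higher numbered 3, assembly factors 5, and respiratory chain genes called lower 4.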
